A study of Homo sapiens with 12 samples.

Results

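This report describes the mRNA of genes that display peptides on HLA class I molecules, in 4 forms of HCT116, a human colorectal carcinoma cell line. The genes were chosen by name: HLA-B, HLA-C, HLA-E, HLA-F, B2M, TAP1, TAP2, TAPBP and NLRC5, 9 genes in all. After Ensembl identifiers were matched to symbols, 2 of the 9, B2M and NLRC5, had a row among the 15074 genes of the tables used here, and the other 7, all on chromosome 6, were not analysed here. The results are therefore about the light chain of class I molecules and the activator of their genes, followed by the wider pathway, and say nothing of the level of any HLA heavy chain.

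Parental HCT116 cells were set beside AGO2 knockout cells and beside 2 lines derived from the knockout that express FH-tagged AGO2. In FH-WT cells the tagged protein is wild type, and in FH-5xA cells it is the 5xA mutant. Each group had 3 libraries from wells seeded with 500000 cells and collected after 48 h, and no group received a further treatment. All 3 modified groups carry the knockout background, and the sources used here do not state how many clones stand behind each line. The spread behind every p-value is thus the spread between wells of a line. Effects of AGO2 loss and other changes in that line cannot be told apart.

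HLA class I molecules carry short peptides from inside the cell to its surface, where cytotoxic T cells and natural killer cells read them. A heavy chain, such as HLA-B, pairs with beta-2-microglobulin, the product of B2M. The proteasome cuts the peptides, the TAP1 and TAP2 transporter moves them into the endoplasmic reticulum, tapasin (TAPBP) holds an empty class I molecule beside it, and the ERAP peptidases trim the peptides to length. NLRC5, a protein of the NOD-like receptor family, activates class I, B2M and TAP1 genes. It does so together with RFX, CREB/ATF and NF-Y factors bound at a shared promoter module, and interferon raises many of these genes. AGO2 is an Argonaute protein: loaded with a microRNA, it binds and represses mRNAs that pair with it.

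The values come from the authors' own comparisons of 2 groups each, with no value per library, and library depth is therefore unknown. The deposited mean log2 CPM was identical in all 5 comparisons, so the spread behind a p-value may be pooled over the 4 groups. Fold changes are on a log2 scale, and each is given with a standard error (SE) derived from the deposited likelihood ratio. A gene is called where the false discovery rate (FDR) is under 0.05. AGO2 mRNA stood at -0.35 ± 0.07 in knockout against parental, at 0.75 ± 0.07 in FH-WT against knockout and at 0.73 ± 0.07 in FH-5xA against knockout in the authors' deposited tables, all of them called. Against parental it was also called higher, at 0.40 ± 0.07 in FH-WT and 0.38 ± 0.07 in FH-5xA cells, in the authors' deposited tables. Of 10 markers of colorectal epithelium, 6 were measured, including EPCAM and the keratins KRT8, KRT18 and KRT19, with a summed fitted level between 2017 and 2828 CPM (counts scaled to library size) in the 4 groups. In knockout against parental 0 of the 6 were called higher and 3 lower, against 23.2% and 21.2% of all genes. Of the 6, CDH1 fell most, at -0.97 ± 0.08 in knockout and -1.64 ± 0.09 in FH-WT, both against parental in the authors' deposited tables. CDX1, VIL1, LGALS4 and CEACAM5 matched no row used here. Cells of the blood, endothelium and connective tissue also carry class I. Of their markers, 1 of 18 leukocyte markers (CORO1A), 2 of 11 endothelial markers and 3 of 13 fibroblast markers were measured. Their summed fitted levels were 1.36 to 2.70 CPM, 28.7 to 34.04 CPM and 5.88 to 12.2 CPM across the groups, and most of the endothelial sum, which is above the level of B2M, was EGFL7. In knockout against parental, the fibroblast markers ACTA2 and COL1A1 were called higher, at 1.41 ± 0.17 and 0.59 ± 0.24, and TAGLN lower, at -0.60 ± 0.18, in the authors' deposited table. CORO1A was called lower at -0.99 ± 0.24 in the authors' deposited table, and neither endothelial marker was called. Neither PTPRC, which marks leukocytes, nor PECAM1 and CDH5, which mark endothelium, matched a row. The part of these markers in the results below was not tested.

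The 7 genes not analysed lie in the major histocompatibility complex (MHC) of chromosome 6 (GRCh38). HLA-F is at 29722775 to 29738528, HLA-E at 30489467 to 30494205, HLA-C at 31268749 to 31272130, TAP2 at 32821833 to 32838780, TAP1 at 32845209 to 32853978 and TAPBP at 33299694 to 33314387 in GENCODE 29. HLA-B is annotated there from 31269491 to 31357188. Between 29 and 33 Mb of that chromosome, 0 of 153 annotated protein-coding genes matched a row used here, against 59.6% of the 19798 other protein-coding genes. The genes without a row include ones that every dividing cell uses, such as the tubulin TUBB and the RNA helicase DDX39B, examples chosen after the gap was seen. On the flanks, 10 of 18 coding genes from 28 to 29 Mb and 4 of 29 from 33 to 34 Mb had a row. The 18 measured genes of any type between 28 and 34 Mb had a median of -0.18 in knockout against parental in the authors' deposited table, with 2 called higher and 5 called lower.

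**Figure D1:**
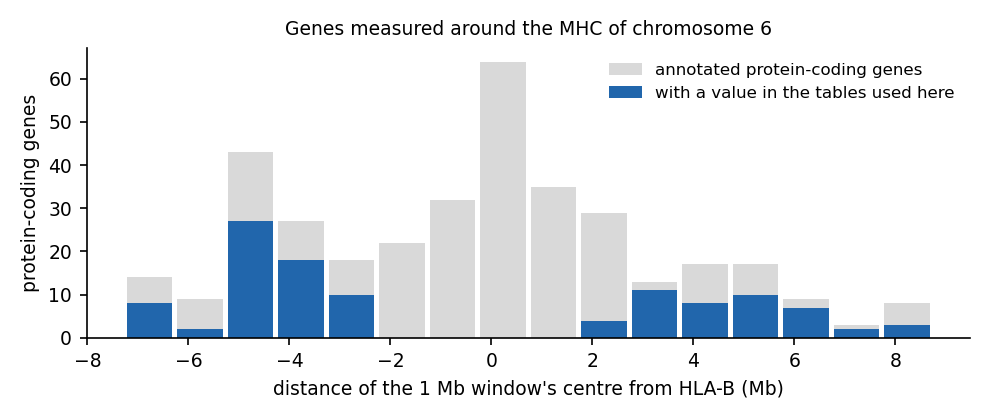
Protein-coding genes in windows of 1 Mb on chromosome 6 (y axis, number of genes) by the distance of the window's centre from the HLA-B gene (x axis, Mb); grey bars are annotated genes and blue bars those with a value in the tables used here. The 4 windows from 29 to 33 Mb hold 153 annotated genes and 0 with a value.

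B2M (ENSG00000166710, chromosome 15, 44711487 to 44718877, plus strand, GRCh38) encodes the light chain that every class I molecule needs to reach the cell surface. Its promoter is shown because the shared module described above lies in promoters of this kind. Whether NLRC5 had a part in the B2M values was not tested. In FH-WT against parental, NLRC5 was higher by 0.95 ± 0.14 while B2M was at -0.07 ± 0.20 in the authors' deposited table. The RefSeq promoter (GRCh38.p14, chr15:44711267-44711566, plus strand) spans 300 bases around the transcription start:
B2M promoter: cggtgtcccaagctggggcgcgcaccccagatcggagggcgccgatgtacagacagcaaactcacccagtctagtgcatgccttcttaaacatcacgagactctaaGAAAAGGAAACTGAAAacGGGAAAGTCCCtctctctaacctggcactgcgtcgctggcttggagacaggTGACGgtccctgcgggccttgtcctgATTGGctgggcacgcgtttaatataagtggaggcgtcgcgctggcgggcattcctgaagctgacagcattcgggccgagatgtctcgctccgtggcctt
Capitals mark matches, on either strand, to 4 motifs chosen with this sequence in view. The interferon response core (GAAA, then any 2 bases, then GAAA), which interferon regulatory factors read, matched at 2 overlapping places. A loose NF-kB motif (GGGA, then any 4 bases, then CC) matched the same stretch on both strands, and TGACG is a site that CREB/ATF factors read in part or whole. CCAAT, here as ATTGG on the other strand, is the box of NF-Y. Of 35116 RefSeq promoters of 300 bases, 3.57% held the interferon response core, 25.6% the NF-kB motif, 24.6% TGACG and 34.6% CCAAT, and 13 held all 4. A match describes the letters and not a bound site. NLRC5 had no entry in the promoter table.

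B2M mRNA was higher in the knockout and in FH-5xA cells than in parental cells, while FH-WT against parental did not pass the test. The fitted level, taken from the deposited mean and fold changes, was 13.5 CPM in parental cells (12.2 to 14.8 CPM within 1 SE), 18.5 CPM in knockout cells (16.8 to 20.3), 12.9 CPM in FH-WT cells (11.7 to 14.2) and 18.6 CPM in FH-5xA cells (16.9 to 20.5). By fitted level, FH-WT and parental cells were low and knockout and FH-5xA cells high. The 1 SE ranges did not overlap between these pairs, which is not a test. Of the contrasts between the pairs, FH-WT against knockout (FDR 0.0675) and FH-5xA minus FH-WT (Benjamini-Hochberg adjusted p = 0.0935, derived test) did not pass.

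B2M was at 0.46 ± 0.19 in knockout against parental in the authors' deposited table, a 1.37-fold difference with an FDR of 0.0419. It was at 0.47 ± 0.19 in FH-5xA against parental, with an FDR of 0.0388 in the authors' deposited table. These rises passed the threshold by a small margin and both ended at an FDR threshold of 0.01. In FH-WT against parental B2M was at -0.07 ± 0.20 with an FDR of 0.833 in the authors' deposited table, and the 95% interval ran from -0.46 to 0.32.

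Against the knockout, B2M was at -0.52 ± 0.20 with FH-WT in the authors' deposited table, which did not pass (FDR 0.0675, unadjusted p = 0.00793). With FH-5xA it was at 0.01 ± 0.19 in the authors' deposited table (FDR 0.986), with a 95% interval of -0.37 to 0.38. FH-5xA cells exceeded FH-WT cells by a derived 0.53 ± 0.20, or 1.45-fold, with a 95% interval of 0.15 to 0.92. It did not pass after adjustment over 15072 genes (Benjamini-Hochberg adjusted p = 0.0935, unadjusted p = 0.00703). A difference in B2M between mutant and wild-type AGO2 is therefore not shown after adjustment, although the unadjusted interval lies above 0.

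The error of B2M was wide for its level. Among 2091 genes within 0.5 of its mean expression of 3.99 (log2 CPM), 89.9% to 90.1% had a smaller SE, depending on the table. The median SE of those genes in knockout against parental was 0.116, against 0.193 for B2M. Per kilobase of annotated exon, B2M had a mean of 2.61 CPM, above 33.5% of 15029 genes. That length, 6079 bases, joins the exons of all its annotated transcripts, retained introns included, and may differ from the annotation the authors counted with. Whether the B2M value holds all reads of the gene was not tested. Its CPM may therefore not be its full level, and its fold changes may not be those of the whole mRNA.

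**Figure D2:**
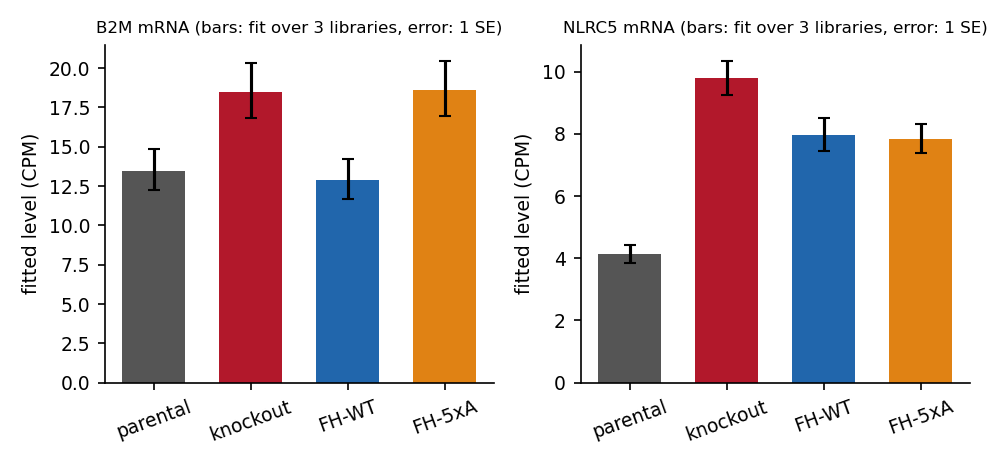
Fitted mRNA level (y axis, CPM) of B2M (left) and NLRC5 (right) in the 4 groups (x axis); bars are the level fitted over 3 libraries and error bars are 1 SE. B2M stands at 13.5 and 12.9 CPM in parental and FH-WT cells and at 18.5 and 18.6 CPM in knockout and FH-5xA cells, while NLRC5 is at 4.14 CPM in parental cells and between 7.84 and 9.79 CPM in the others.

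NLRC5 (ENSG00000140853, chromosome 16, 56989485 to 57083531, plus strand, GRCh38) was higher in all 3 knockout-derived groups than in parental cells. Its fitted level was 4.14 CPM in parental cells (3.86 to 4.43 CPM within 1 SE), 9.79 CPM in knockout cells (9.26 to 10.3), 7.97 CPM in FH-WT cells (7.46 to 8.52) and 7.84 CPM in FH-5xA cells (7.38 to 8.33). Parental cells were lowest. The 1 SE ranges of parental and of knockout cells overlapped with no other group, which is not a test. The fitted knockout level was the highest, but its differences from FH-WT and FH-5xA did not pass the test.

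NLRC5 rose by 1.24 ± 0.13 in knockout against parental in the authors' deposited table, 2.37-fold, with an FDR of 9.05e-21. It was still higher by 0.95 ± 0.14 in FH-WT against parental (FDR 2.06e-10) and by 0.92 ± 0.13 in FH-5xA against parental (FDR 5.76e-11) in the authors' deposited tables. Against the knockout it was at -0.30 ± 0.12 with FH-WT (FDR 0.110, unadjusted p = 0.0176) and at -0.32 ± 0.12 with FH-5xA (FDR 0.0570, unadjusted p = 0.00691) in the authors' deposited tables. Neither value passed, although FH-5xA passed at an FDR of 0.0494 when fold changes were centred on the median of all genes. FH-5xA minus FH-WT gave a derived -0.02 ± 0.13, with a 95% interval of -0.28 to 0.23 and a Benjamini-Hochberg adjusted p of 0.944. On the other strand, an antisense transcript and a processed pseudogene, lie inside NLRC5 in GENCODE 29 and neither had a row. Whether counting used strand is not stated in the labels, so reads of either could be counted in NLRC5.

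In knockout against parental 2 of the 2 measured members were called, both higher, where 44.4% of all 15074 genes were called (23.2% higher and 21.2% lower). In FH-5xA against parental it was again 2 of 2, with 43.8% of all genes called (22.9% higher and 20.9% lower), and in FH-WT against parental 1 of 2, with 34.4% called (18.3% higher and 16.1% lower). Neither member was called in FH-WT against knockout (10.1% of all genes called, 4.21% higher and 5.85% lower), in FH-5xA against knockout (11.3% called, 5.04% higher and 6.24% lower) or in FH-5xA minus FH-WT (4.11% called, 1.98% higher and 2.13% lower). At an unadjusted p under 0.05 the counts were 2, 1 and 1 of 2, where 24%, 24.6% and 19.3% of all genes reached that level, by the authors' edgeR test and the derived test. With backgrounds that high and 2 genes, these counts are no result about the pathway. The comparisons share groups: knockout and parental cells each enter 3 of the 5 deposited tables, so the values against knockout and against parental are not independent.

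**Figure D3:**
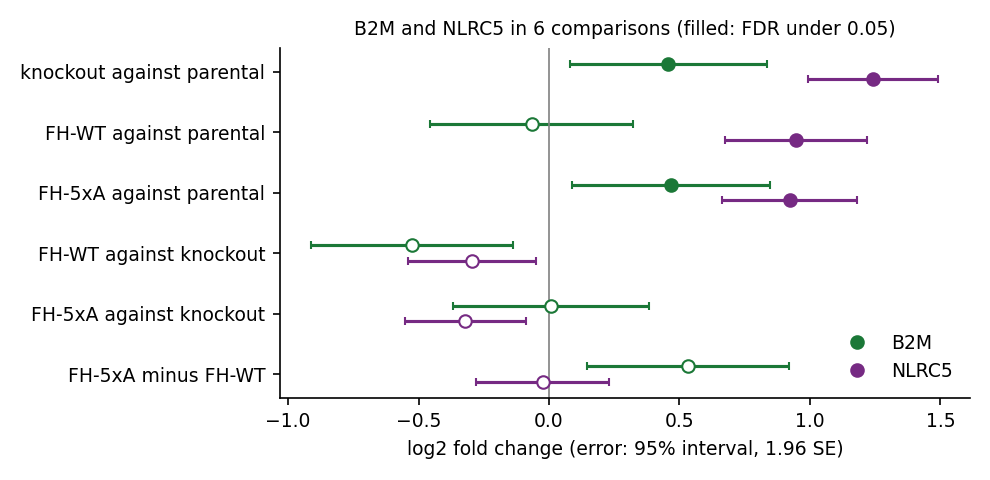
Log2 fold change (x axis) of B2M and NLRC5 in 5 deposited comparisons and in the derived contrast of FH-5xA with FH-WT (y axis); points are estimates, error bars 95% intervals, and filled points have an FDR under 0.05. NLRC5 lies above 0 against parental in all 3 comparisons, and B2M does so in knockout at 0.46 and FH-5xA at 0.47 but not in FH-WT at -0.07.

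The surroundings of both genes on their chromosomes showed no like rise. The 112 measured genes within 5 Mb of B2M had a median of -0.06 in knockout against parental in the authors' deposited table, and 9 of them had a larger value than B2M. The 53 measured genes within 5 Mb of NLRC5 had a median of -0.12 in the authors' deposited table, and 0 of them exceeded NLRC5. Over whole chromosomes the medians in that table were -0.00018 for the 492 genes of chromosome 15 and -0.08 for the 655 genes of chromosome 16.

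Likeness of pattern was measured as the Euclidean distance over 3 fold changes, knockout against parental, FH-WT against knockout and FH-5xA against knockout, among 14767 genes with a mean of at least 1 CPM. The genes nearest to NLRC5 were GRAMD1B at a distance of 0.012, the death receptor FAS at 0.056 and the transcription factor MXD1 at 0.070 (log2 units). FAS, for example, had 1.24, -0.31 and -0.38 in the authors' deposited tables. Nearest to B2M were an unnamed gene (ENSG00000260418) at 0.041, the matrix protein THBS3 at 0.069 and ADSS1, an enzyme of adenine nucleotide synthesis, at 0.075.

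The series concerns microRNA silencing, so the 3′ untranslated regions of both members were searched for sites of 9 microRNA seeds (let-7, miR-17, miR-19, miR-200b, miR-200a, miR-21, miR-16, miR-29 and miR-34). B2M held 1 site, for miR-200a-3p, in 1285 bases, and NLRC5 held 3 sites in 996 bases, for miR-200a-3p, miR-21-5p and miR-34a-5p. In each case the annotated coding transcript with the longest such region was used. The microRNAs are shown from 5′ to 3′ with the seed (bases 2 to 8) in capitals, and the sites with the 7 pairing bases in capitals:
miR-200a-3p: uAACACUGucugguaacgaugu
miR-21-5p: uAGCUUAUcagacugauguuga
miR-34a-5p: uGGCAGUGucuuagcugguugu
B2M site for miR-200a-3p: tttttttcccCAGTGTTtttgatccat
NLRC5 site for miR-200a-3p: acatgttaccCAGTGTTcttgttactt
NLRC5 site for miR-21-5p: tgccaagacaATAAGCTaggctactgg
NLRC5 site for miR-34a-5p: gggtagggggCACTGCCaagacaataa
The microRNA sequences are from RefSeq (GRCh38.p14) and the sites from GENCODE 29 transcripts. Such sites are common: among 11743 measured genes with such a region, of median length 1417 bases, 21.8% held the miR-200a site, 10.2% the miR-21 site and 18.0% the miR-34a site. The levels of these microRNAs were not analysed here.

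The wider pathway is given by gene lists chosen with earlier results of these data known, described by counts and medians with no test of the list. Over all lists, 34 of 63 measured genes (54.0%) were called in knockout against parental, where 44.4% of all genes were called. The 3 measured peptidases that trim peptides rose in the knockout. In the list of peptide loading and trimming, 3 of 7 measured genes were called higher in knockout against parental and 0 lower, against 23.2% and 21.2% of all genes, with a median of 0.14 against -0.01 over all genes. ERAP2, a trimming peptidase of the endoplasmic reticulum, rose by 1.85 ± 0.13 and its relative ERAP1 by 1.08 ± 0.15 in knockout against parental in the authors' deposited table. LNPEP, which trims peptides in endosomes, rose by 0.42 ± 0.08 in that authors' deposited table. The chromosomal surroundings of these 3 genes were not examined as those of B2M and NLRC5 were, so the 3 calls may not be separate. The chaperones did not follow: calnexin (CANX) was at -0.15 ± 0.09 and calreticulin (CALR) at 0.14 ± 0.12 in the authors' deposited table, neither of them called.

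All 3 peptidases were lower in FH-WT than in knockout cells. They were named for a small p in knockout against parental, which shares the knockout libraries. A fall against knockout is therefore favoured in advance for genes that were higher there, including list genes named the same way below. In FH-WT against knockout ERAP2 fell by 0.64 ± 0.12, ERAP1 by 0.47 ± 0.15 and LNPEP by 0.34 ± 0.08 in the authors' deposited table. In FH-5xA against knockout ERAP2 fell by 0.997 ± 0.12 and ERAP1 by 0.72 ± 0.14 in the authors' deposited table, and LNPEP was at -0.21 ± 0.08, not called. The fitted level of ERAP2 was 2.79 CPM in parental, 10.03 CPM in knockout, 6.46 CPM in FH-WT and 5.02 CPM in FH-5xA cells. Parental cells were thus lowest in ERAP2 and knockout cells highest. FH-5xA minus FH-WT was -0.36 ± 0.14 for ERAP2 (Benjamini-Hochberg adjusted p = 0.107) and -0.25 ± 0.15 for ERAP1 (adjusted p = 0.351). For LNPEP it was 0.14 ± 0.08 (adjusted p = 0.351), and none of the 3 passed.

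Among proteasome genes, the 3 measured inducible ones rose in the knockout. Of the immunoproteasome and PA28 list, PSMB10, PSME1 and PSME2 were measured and all 3 were called higher in knockout against parental, where 23.2% of all genes were, with a median of 0.55. PSME1 and PSME2, the PA28 activator subunits that open the proteasome, rose by 0.55 ± 0.09 and 0.29 ± 0.10 in the authors' deposited table. PSMB10, a catalytic subunit of the immunoproteasome, rose by 0.87 ± 0.28 in the authors' deposited table, from a fitted level of 0.67 CPM. PSMB8 and PSMB9, which lie in the MHC, were not analysed here. The chromosomal surroundings of the 3 measured genes were not examined, so their calls may not be separate. In FH-5xA against knockout PSME1 fell by 0.35 ± 0.09 and PSME2 by 0.40 ± 0.10 in the authors' deposited table, while FH-WT gave -0.11 ± 0.09 and -0.18 ± 0.10, neither called. The derived difference between the reconstituted lines did not pass for either gene (Benjamini-Hochberg adjusted p = 0.0892 and 0.211).

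Of 13 measured constitutive core subunits, 0 were called higher and 3 lower in knockout against parental, with a median of -0.10. The share called lower is close to the 21.2% of all genes, and 23.2% of all genes were called higher. PSMA2 fell by 0.99 ± 0.12 and PSMA7 by 0.36 ± 0.12 in the authors' deposited table. PSMA2 lies in the left part of chromosome 7, where 226 genes up to 50 Mb had a median of -0.90 in the same authors' deposited table. PSMB1, at -0.17 ± 0.07 in the authors' deposited table, was no longer called when fold changes were centred on the median of all genes.

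Class I-like molecules use the class I fold for other purposes. Of 8 measured genes, 6 were called higher and 1 lower in knockout against parental, against 23.2% and 21.2% of all genes, with a median of 0.85. MR1, which presents vitamin B metabolites to T cells, rose by 1.36 ± 0.10 and PROCR, the protein C receptor, by 1.14 ± 0.11 in the authors' deposited table. The stress ligands of the natural killer receptor NKG2D did not all move alike. RAET1L rose by 2.28 ± 0.20, ULBP2 by 0.96 ± 0.13 and RAET1E by 0.74 ± 0.13 in the authors' deposited table, while ULBP1 fell by 0.49 ± 0.12. RAET1L and ULBP2 have close copies in the genome, so their counts are uncertain. MR1 fell by 0.30 ± 0.10 and RAET1L by 0.73 ± 0.17 in FH-WT against knockout in the authors' deposited table, and PROCR, at 0.01 ± 0.11, did not. In FH-5xA against knockout RAET1L was at -0.92 ± 0.17 in the authors' deposited table, called lower. MR1 at -0.22 ± 0.09 and PROCR at -0.20 ± 0.11 were not called in that table. MR1, RAET1L and PROCR did not pass the derived test of FH-5xA minus FH-WT.

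The factors that work with NLRC5 on class I promoters were called in both directions, as were all genes. Of 12 measured genes of the RFX, CREB/ATF and NF-Y complexes and their coactivators, 5 were called higher and 2 lower in knockout against parental, against 23.2% and 21.2% of all genes, with a median of 0.07. RFX5, a DNA-binding subunit of the RFX complex, rose by 0.80 ± 0.08 in the authors' deposited table and fell by 0.35 ± 0.08 in FH-WT against knockout. In FH-5xA against knockout RFX5 was at -0.18 ± 0.07, not called. FH-5xA minus FH-WT was 0.17 ± 0.08 for RFX5 (Benjamini-Hochberg adjusted p = 0.176), and 0 genes of this list passed that derived test. The acetyltransferases EP300 and KAT2B rose by 0.72 ± 0.14 and 0.70 ± 0.12 in the authors' deposited table, while the NF-Y subunit NFYB fell by 0.45 ± 0.08. KAT2B fell by 0.52 ± 0.13 in FH-WT and by 0.60 ± 0.12 in FH-5xA, both against knockout, in the authors' deposited tables. EP300 was at 0.20 ± 0.14 and 0.28 ± 0.14 in FH-WT and FH-5xA against knockout in the authors' deposited tables, neither called. CREBBP, the relative of EP300, rose by 0.64 ± 0.17 in the knockout and by a further 0.52 ± 0.17 in FH-5xA against knockout in the authors' deposited tables, and was at 0.31 ± 0.17 with FH-WT, not called. CIITA, the relative of NLRC5 that drives class II genes, matched no row used here.

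Part of the interferon signalling genes rose in the knockout: 7 of 14 measured genes were called higher and 0 lower in knockout against parental, against 23.2% and 21.2% of all genes, with a median of 0.20. IRF1 and IRF2, which are interferon regulatory factors, each rose by 0.85 (SE 0.09 and 0.13) in the authors' deposited table. Their part in the B2M values was not tested. SOCS1, a feedback inhibitor, rose by 1.15 ± 0.27 in the authors' deposited table, from 0.64 CPM, and STAT3 by 0.73 ± 0.07. With wild-type AGO2, IRF1 fell by 0.35 ± 0.09, IRF2 by 0.46 ± 0.14 and STAT3 by 0.38 ± 0.07 in FH-WT against knockout in the authors' deposited table. In FH-5xA against knockout IRF1 fell by 0.37 ± 0.09 in the authors' deposited table, and IRF2 at -0.32 ± 0.13 and STAT3 at -0.15 ± 0.07 were not called. Of this list, STAT3 alone passed the derived test of FH-5xA minus FH-WT, close to the threshold.

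**Figure D4:**
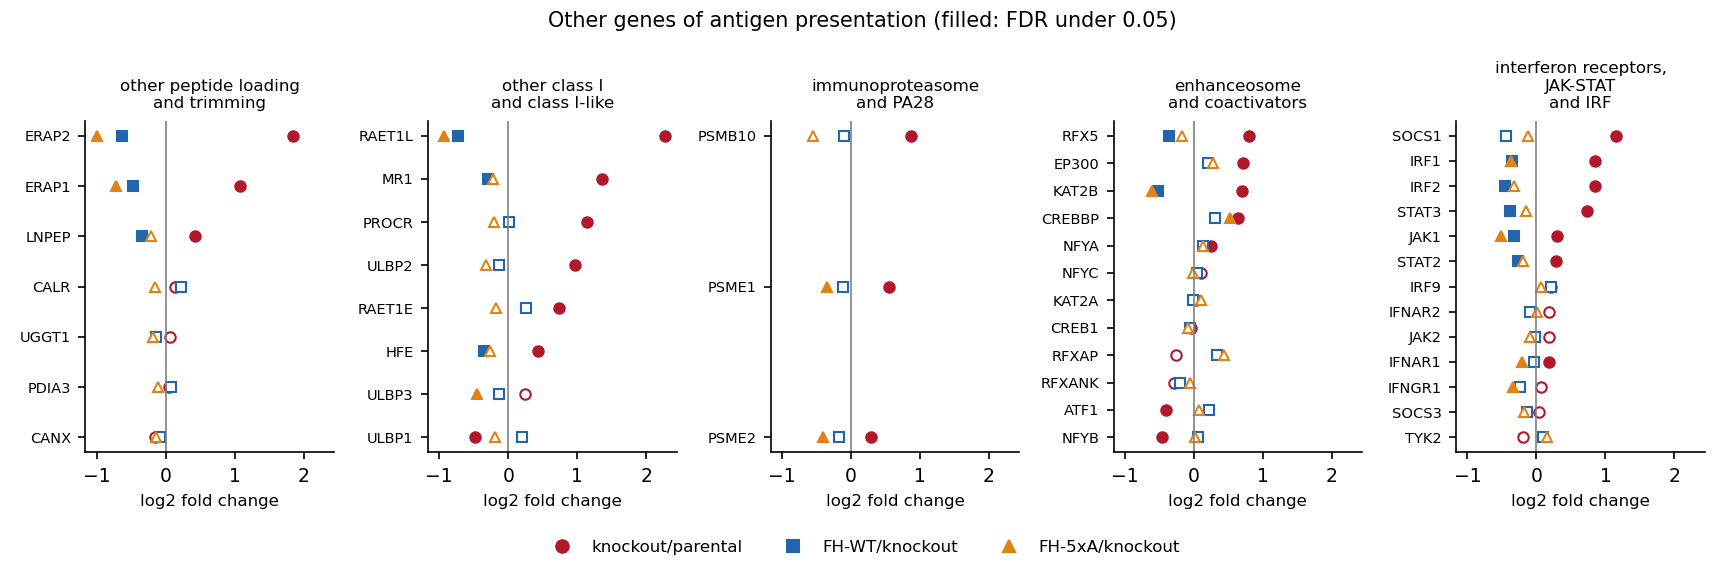
Log2 fold changes (x axis) of measured genes (y axis) in 5 lists of the pathway, with 1 interferon signalling gene left out; red circles are knockout against parental, blue squares FH-WT against knockout and orange triangles FH-5xA against knockout, filled where the FDR is under 0.05. ERAP2 and ERAP1 lie at 1.85 and 1.08 in the knockout and below 0 with either AGO2 protein, while CALR and CANX lie near 0.

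The last list holds genes that act on class I molecules after assembly. Of 5 measured genes, 3 were called higher and 1 lower in knockout against parental, against 23.2% and 21.2% of all genes, with a median of 0.22, and 2 of these 4 calls were left at an FDR threshold of 0.01. SUSD6, part of a membrane complex that sends class I to degradation, rose by 0.82 ± 0.14 and its partner TMEM127 by 0.22 ± 0.09 in the authors' deposited table. WWP2, also of this list, was at -0.05 ± 0.12 in knockout against parental in the authors' deposited table, not called. SPPL3, a protease that changes surface glycolipids and glycans, rose by 0.30 ± 0.12, and the ubiquitin ligase MARCHF9 fell by 0.56 ± 0.11 in the authors' deposited table. MARCHF9 was higher by 0.32 ± 0.11 in FH-5xA against knockout in the authors' deposited table, and at -0.03 ± 0.12 in FH-WT against knockout, not called. In FH-5xA minus FH-WT 0 genes of this list passed the derived test. Of 14 class II genes and chaperones 1 was measured, the lysosomal reductase IFI30, at -0.12 ± 0.24 in knockout against parental in the authors' deposited table, not called.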

How the data were processed

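The 12 libraries (4 groups of 3) were made from ribosomal RNA-depleted total RNA with a stranded kit and run on a NextSeq instrument, per the labels' protocols. Per the submitters' processing notes, the genome was hg38/GRCh38 and the tools included edgeR 3.8.6, TopHat2 2.0.12, featureCounts 1.4.6 and Cufflinks 2.2.1. The sources used here do not state the annotation, count filter, normalization factors or strand setting. Per the file headers, the authors deposited 5 tables with a p-value, an FDR, a log2 fold change, a mean log2 CPM and a likelihood ratio (a score) for 15074 genes. The members and lists were chosen with earlier results of these data known.

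Identifiers were matched to symbols (14974) and to GENCODE 29 (15029). The SE is the absolute log2 fold change over the square root of the score. Fitted levels spread the deposited mean CPM over the groups by their fold changes. FH-5xA minus FH-WT is the difference of the 2 fold changes against knockout, with group variances solved by least squares from the 5 squared SEs, a chi-square test with 1 degree of freedom and Benjamini-Hochberg adjustment over 15072 genes (numpy 2.4.6, scipy 1.17.1). Tested on counts simulated at an assumed equal depth and with a known spread, it made somewhat more false calls than its nominal rate. The planted changes it recovered were larger than the differences of the list genes called, so recovery of differences that small was not tested. Named were all members and the 3 genes nearest to each member. Also named were up to 4 genes per list with the smallest p in knockout against parental, and list genes called between FH-5xA and FH-WT. ULBP1, CREBBP, WWP2 and the markers with values were named after their values were seen. One gene is not reported here. Intervals are the estimate plus and minus 1.96 SE.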

Additional observations from a re-analysis of the deposited data

Results flagged for a closer look

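Neither B2M nor NLRC5 passed the test between FH-5xA and FH-WT after adjustment. Of 63 measured genes of the pathway lists 4 passed (6.35%), where 4.11% of all genes did. Each was picked out because its response to AGO2 in knockout cells differed between mutant and wild-type protein by the derived test. The chaperone CALR differed by -0.37 ± 0.12 (Benjamini-Hochberg adjusted p = 0.0472), the NKG2D ligand RAET1E by -0.43 ± 0.13 (adjusted p = 0.0367) and the core proteasome subunit PSMB2 by -0.27 ± 0.08 (adjusted p = 0.0419), all lower in FH-5xA cells. STAT3 was higher in FH-5xA cells by 0.23 ± 0.07 (adjusted p = 0.0443). All 4 lie close to the threshold, all 4 calls ended when the variance was summed over the tables (RAET1E, for example, at an adjusted p of 0.581), and the derived test made more false calls than its nominal rate on simulated counts.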

How the results depend on the processing

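At an FDR threshold of 0.01 the count of members called fell from 2 to 1 in knockout against parental and to 1 in FH-5xA against parental, with B2M lost each time. Centring on the median of all genes raised it from 0 to 1 in FH-5xA against knockout, with NLRC5 gained. The counts of members called under the other alternatives were the same, with 23 of 26 unmoved. Centring on chromosome 6 outside 28 to 34 Mb changed the sign of 4 values, none of them called: IFI30 in FH-WT against knockout (0.0058), PSMB1 in FH-WT against parental (0.00024), and CALR (0.046) and PSMB2 (0.024) in FH-5xA against parental. Of all other named fold changes, 728 kept direction and call, 39 lost the call and 3 gained it, and 31 of the counts of list genes called moved by over 1.5 times while 177 did not. The 4 list genes called between FH-5xA and FH-WT were all lost at an FDR threshold of 0.01 and when the variance was summed over the tables against knockout or parental, which counts the shared group's variance as well; in the latter case adjusted p ran from 0.581 (RAET1E) to 0.643. Centring on chromosome 6 also ended the calls of CALR (0.0595) and PSMB2 (0.0574), and centring on all genes that of STAT3 (0.0532). Fitted levels moved by less than 1 SE in 8 of 8 cases when the mean was taken on the log2 scale. No paired analysis was possible because the tables hold no value per library; for the same reason no replicate was left out, and neither fit was run. What depth limits cannot be read from these tables, which hold no counts.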
